A study of Mus musculus with 11 samples.

Results

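Expression of 34 listed genes of amino acid supply and protein synthesis was followed through MYC-driven lymphoma of the mouse thymus. The list holds 20 cytosolic aminoacyl-tRNA synthetases, 12 genes of the ATF4-type stress and amino acid response, and 2 scaffold proteins of the multi-tRNA synthetase complex. A gene was included where a probe set of the array carried its symbol and no other. Of the 34 genes, 32 had such a probe set, among them 18 of the 20 synthetases. The probe set of Aars names a second gene, and Dars had no probe set of its own symbol, so both are not analysed here. Mars stands on the platform as Mars1. Iars had 2 probe sets, of which the brighter was used.

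The 11 samples came from FVB mice, 1 array each, and the labels call the samples of a group biological replicates. Dnmt3b-deficient lymphomas (n = 3) carried the transgenes EμSR-tTA, Teto-MYC and Teto-Cre, with Rosa26LOXPEGFP as reporter, and were Dnmt3b-/-. Wild-type lymphomas (n = 3) carried EμSR-tTA with Teto-MYC, the Rosa26LOXPEGFP reporter and Dnmt3bF/F alleles, with no Cre transgene. Pre-tumor Dnmt3b-deficient thymocytes (n = 2) shared the genotype of the Dnmt3b-deficient lymphomas and were taken at 24 days of age. Normal thymocytes (n = 3) carried EμSR-tTA with Teto-Cre, the Rosa26LOXPEGFP reporter and Dnmt3b+/+ alleles, without a MYC transgene, also at 24 days. Every group carried the tTA activator and the reporter. The study asks what deletion of the DNA methyltransferase Dnmt3b does to gene expression in lymphomas driven by MYC. The transgenes act in blood-forming cells. EGFP-positive cells were sorted from pre-tumor thymi, tumors were taken unsorted once their burden was apparent, and the labels do not make clear whether normal thymocytes were sorted. MYC, sorting and, for the tumors, age therefore differ between groups together, as do the Dnmt3b alleles, which are +/+ in normal thymocytes alone. Wild-type lymphomas also lack the Cre transgene that normal thymocytes carry. The parts of all these in a difference from normal thymocytes cannot be told apart. Among the tumors, Cre goes with the Dnmt3b genotype.

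Aminoacyl-tRNA synthetases load each amino acid onto its tRNA, and without them ribosomes have nothing to build with. Part of them sit in a large complex held together by the scaffolds Aimp1, Aimp2 and Eef1e1, while the others work free in the cytosol. When amino acids run short or the endoplasmic reticulum is stressed, kinases phosphorylate the initiation factor eIF2α, which slows translation in general and favours translation of the transcription factor ATF4. ATF4 then switches on genes for amino acid synthesis and transport, synthetases, and stress genes such as Ddit3, Trib3 and Chac1. MYC is a transcription factor that raises ribosome production and growth metabolism in many cell types.

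Array medians lay between 4.55 and 4.62 on the log2 scale, the correlation of 2 arrays of a group over all probe sets was 0.973 to 0.991, and no member sat at the lowest value of the table, 3.32, on any array. The Dnmt3b probe set gave between 5.07 and 5.70 on the 11 arrays. Where this probe set lies relative to the deleted exons was not given, and it does not check the genotype. The probe set of mouse Myc fell by 3.28 on the log2 scale in Dnmt3b-deficient lymphomas, by 2.66 in wild-type lymphomas and by 2.03 in pre-tumor thymocytes, each against normal thymocytes. The thymocyte identity of the samples was checked with 9 measured marker genes, whose mean log2 level was 7.73 to 7.89 in Dnmt3b-deficient lymphomas, 7.14 to 7.83 in wild-type lymphomas, 8.32 to 9.07 in pre-tumor thymocytes and 9.99 to 10.16 in normal thymocytes. Of these 9 markers, 7 were called lower in Dnmt3b-deficient lymphomas, 8 in wild-type lymphomas and 5 in pre-tumor thymocytes, each against normal thymocytes. Of all probe sets, 10.5%, 10.3% and 9.88% were called lower in the same order of comparisons. Rag2 was at the lowest value of the table in all 6 lymphomas.

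A gene was called higher or lower at a Benjamini-Hochberg adjusted p under 0.05 from limma, fitted over 28939 probe sets and all 4 groups. A difference is the log2 level of the first-named group minus that of the second, so that 1 is a 2-fold difference. The 3 comparisons with normal thymocytes share the same normal samples and are given side by side, not as support for each other. In these bulk samples, more RNA of a gene per cell and more cells that express it cannot be told apart.

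Many of the cytosolic synthetases were higher than in normal thymocytes in the groups with the MYC transgene, called MYC-bearing samples from here on. In Dnmt3b-deficient lymphomas 16 of 18 were called higher, against 9.7% of all probe sets, and the median difference was 1.09. In wild-type lymphomas 9 of 18 were called higher, against 9.58% of all probe sets, with a median of 0.82. In pre-tumor thymocytes 9 of 18 were called higher, against 9.69% of all probe sets, with a median of 0.77. No synthetase was called lower in any of the 3 comparisons. Over all probe sets tested the median difference was 0 in both lymphoma comparisons and -0.02 in pre-tumor thymocytes. A total of 18958 probe sets had 1 gene symbol and rose above the lowest value on at least 1 array. Of them, 12.1%, 12% and 11.9% were called higher in Dnmt3b-deficient lymphomas, wild-type lymphomas and pre-tumor thymocytes. Their median difference was -0.03, -0.06 and -0.10 in the same order. The mean over the 18 synthetases, relative to the normal mean, was 1.37, 1.32 and 1.03 in the Dnmt3b-deficient lymphomas, 0.98, 1.08 and 0.81 in the wild-type lymphomas, 0.64 and 0.86 in the pre-tumor thymocytes, and between -0.08 and 0.09 in the normal thymocytes. Each MYC-bearing sample thus lay above each normal sample on this mean. Of the other cells that a sample could hold, macrophages were followed by 12 measured markers, which had a mean level of 4.28 to 4.89 in Dnmt3b-deficient lymphomas, 4.51 to 5.73 in wild-type lymphomas, 4.12 to 4.25 in pre-tumor thymocytes and 4.88 to 5.14 in normal thymocytes. Of the 12, 3 were called lower in each of the 3 comparisons with normal thymocytes and 1 higher in wild-type lymphomas, and 2, Adgre1 and Mrc1, were at the lowest value of the table in both pre-tumor samples and in part of the samples of every other group. Dendritic cell markers (8 measured) had a mean level of 5.15 to 5.43 in Dnmt3b-deficient lymphomas, 5.53 to 5.99 in wild-type lymphomas, 5.37 to 5.60 in pre-tumor thymocytes and 5.88 to 6.21 in normal thymocytes, with 3, 0 and 4 of them called lower against normal. Stroma and epithelium markers (8 measured) had 5.28 to 5.43, 4.96 to 5.40 and 4.98 to 5.15 in the same 3 MYC-bearing groups, and 5.49 to 5.58 in normal thymocytes, with 2, 3 and 2 called lower. Among the other lists, 1 of 3 erythroid markers was called lower in Dnmt3b-deficient lymphomas, 1 of 5 B cell markers was called higher in pre-tumor thymocytes, and 0 of 7 neutrophil markers were called in these comparisons. Of all probe sets, 10.5%, 10.3% and 9.88% were called lower in Dnmt3b-deficient lymphomas, wild-type lymphomas and pre-tumor thymocytes. The counts of called markers were not tested against the shares of all probe sets. The part of the marker differences, or of the lower thymocyte markers, in the synthetase differences was not tested.

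**Figure D1:**
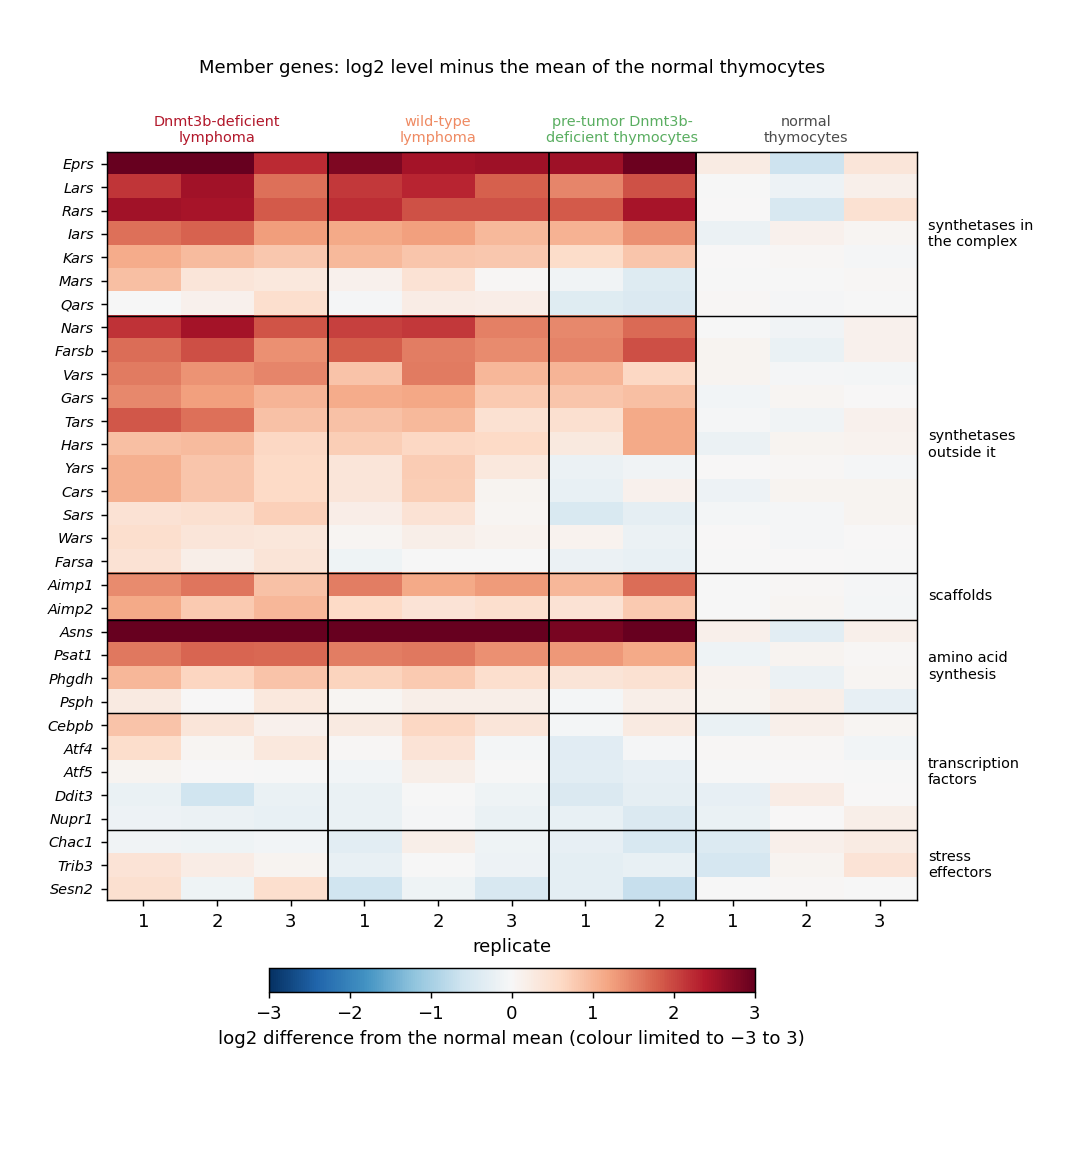
Heat map of the 32 measured members (rows, ordered by role) over the 11 samples (columns, Dnmt3b-deficient lymphomas, wild-type lymphomas, pre-tumor thymocytes and normal thymocytes). Colour is the log2 level minus the mean of the 3 normal samples, limited to -3 and 3; most synthetases, both scaffolds, Asns and Psat1 are above normal in every MYC-bearing sample, while Atf4, Ddit3, Trib3, Chac1 and Nupr1 stay near it.

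The synthetases with the largest differences were Eprs, Rars, Lars, Nars and Farsb. Eprs joins the glutamyl- and prolyl-tRNA synthetases in 1 protein and belongs to the complex. Its log2 level was 9.38, 9.38 and 8.37 in Dnmt3b-deficient lymphomas, 8.94, 8.62 and 8.66 in wild-type lymphomas, 8.66 and 9.08 in pre-tumor thymocytes, and 6.37, 5.51 and 6.49 in normal thymocytes. All 8 MYC-bearing samples lay well above the 3 normal samples. The difference from normal was 2.92 (SE 0.35) in Dnmt3b-deficient lymphomas, 2.62 (SE 0.35) in wild-type lymphomas and 2.74 (SE 0.40) in pre-tumor thymocytes, which correspond to 7.55-fold, 6.13-fold and 6.70-fold, with limma adjusted p of 0.0015, 0.0027 and 0.0046.

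Rars, the arginyl-tRNA synthetase of the complex, had 9.86, 9.81 and 9.18 in Dnmt3b-deficient lymphomas, 9.57, 9.26 and 9.26 in wild-type lymphomas, 9.18 and 9.82 in pre-tumor thymocytes, and 7.36, 6.87 and 7.81 in normal thymocytes. It rose by 2.27 in Dnmt3b-deficient lymphomas, 2.01 in wild-type lymphomas and 2.15 in pre-tumor thymocytes (limma adjusted p = 0.00214, 0.00385 and 0.00588). Lars, the leucyl-tRNA synthetase of the complex, had 8.14, 8.52 and 7.65 in Dnmt3b-deficient lymphomas, 8.11, 8.28 and 7.80 in wild-type lymphomas, 7.45 and 7.91 in pre-tumor thymocytes, and 5.99, 5.85 and 6.15 in normal thymocytes. For both genes the lowest MYC-bearing sample stood more than 1 log2 unit above the highest normal sample. Lars rose by 2.10, 2.07 and 1.69 in the same order of comparisons (limma adjusted p = 0.00127, 0.00156 and 0.00647).

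Nars and Farsb work outside the complex. Nars, which charges tRNA with asparagine, had 10.08, 10.41 and 9.81 in Dnmt3b-deficient lymphomas, 9.98, 10.03 and 9.43 in wild-type lymphomas, 9.37 and 9.61 in pre-tumor thymocytes, and 7.91, 7.81 and 8.04 in normal thymocytes. It rose by 2.18 in Dnmt3b-deficient lymphomas, 1.89 in wild-type lymphomas and 1.57 in pre-tumor thymocytes (limma adjusted p = 0.000629, 0.00117 and 0.0046). MYC-bearing and normal samples did not overlap, and the pre-tumor samples lay at the low end of the MYC-bearing ones.

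The phenylalanyl-tRNA synthetase is built from 2 different subunits, an α chain from Farsa and a β chain from Farsb, which need each other for activity. Farsb had 9.10, 9.35 and 8.80 in Dnmt3b-deficient lymphomas, 9.24, 8.97 and 8.84 in wild-type lymphomas, 8.92 and 9.35 in pre-tumor thymocytes, and 7.51, 7.22 and 7.56 in normal thymocytes. It rose in each MYC-bearing group, by 1.66 in Dnmt3b-deficient lymphomas, 1.59 in wild-type lymphomas and 1.71 in pre-tumor thymocytes (limma adjusted p = 0.0012, 0.00162 and 0.00285). Farsa had 8.19, 7.91 and 8.13 in Dnmt3b-deficient lymphomas, 7.61, 7.73 and 7.74 in wild-type lymphomas, 7.56 and 7.51 in pre-tumor thymocytes, and 7.74, 7.77 and 7.73 in normal thymocytes. The Dnmt3b-deficient lymphomas lay above all other samples for Farsa, the wild-type lymphomas overlapped the normal samples, and the pre-tumor samples lay just below them. Farsa rose by 0.33 in Dnmt3b-deficient lymphomas (95% interval 0.17 to 0.49, limma adjusted p = 0.0137), and differed by -0.05 in wild-type lymphomas (-0.21 to 0.11, 0.756) and -0.21 in pre-tumor thymocytes (-0.39 to -0.03, 0.113). The Farsa call in Dnmt3b-deficient lymphomas was lost after a further quantile normalization (adjusted p = 0.0795) and with only the 2 groups in the fit (0.0651).

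The unequal change of the subunits was also measured within each array, as Farsb minus Farsa, a quantity chosen after the values were seen. It was 0.91, 1.44 and 0.67 in Dnmt3b-deficient lymphomas, 1.62, 1.24 and 1.10 in wild-type lymphomas, 1.35 and 1.84 in pre-tumor thymocytes, and -0.23, -0.55 and -0.17 in normal thymocytes. No MYC-bearing sample overlapped a normal sample. Against normal thymocytes the quantity was higher by 1.33 in Dnmt3b-deficient lymphomas, 1.64 in wild-type lymphomas and 1.92 in pre-tumor thymocytes (two-sided exact permutation p = 0.1 for each, the smallest these group sizes allow, so none could pass 0.05). It compares the paired genes on the arrays, and says nothing of how much of either chain the cells held.

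The 250 bases before the start of each subunit gene are given because the pair differ in an E-box, the sequence CACGTG that MYC with its partner MAX binds. Windows were also searched for TGATGNAA (N is any base), a core of the C/EBP-ATF response element that ATF4 binds. Both were searched on both strands, and capitals mark a match. Farsb lies at chr1:78488898-78489147 on the minus strand and Farsa at chr8:84856736-84856985 on the plus strand (RefSeq, build GRCm38.p6).
Farsb: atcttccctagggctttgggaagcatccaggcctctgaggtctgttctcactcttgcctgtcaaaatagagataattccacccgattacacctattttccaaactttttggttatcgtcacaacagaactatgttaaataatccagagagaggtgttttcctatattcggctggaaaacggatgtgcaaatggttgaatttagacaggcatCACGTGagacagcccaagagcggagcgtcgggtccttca
Farsa: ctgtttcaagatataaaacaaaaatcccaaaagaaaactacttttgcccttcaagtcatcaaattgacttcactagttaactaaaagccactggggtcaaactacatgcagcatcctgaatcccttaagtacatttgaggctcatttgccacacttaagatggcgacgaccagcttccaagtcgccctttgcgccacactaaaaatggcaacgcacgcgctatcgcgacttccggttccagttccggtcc
The E-box of Farsb begins at position -39 from the start, and no match to either sequence was present in the Farsa window. A match is a description of the letters and not a binding site, and no match says only that these letters are not in the window.

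**Figure D2:**
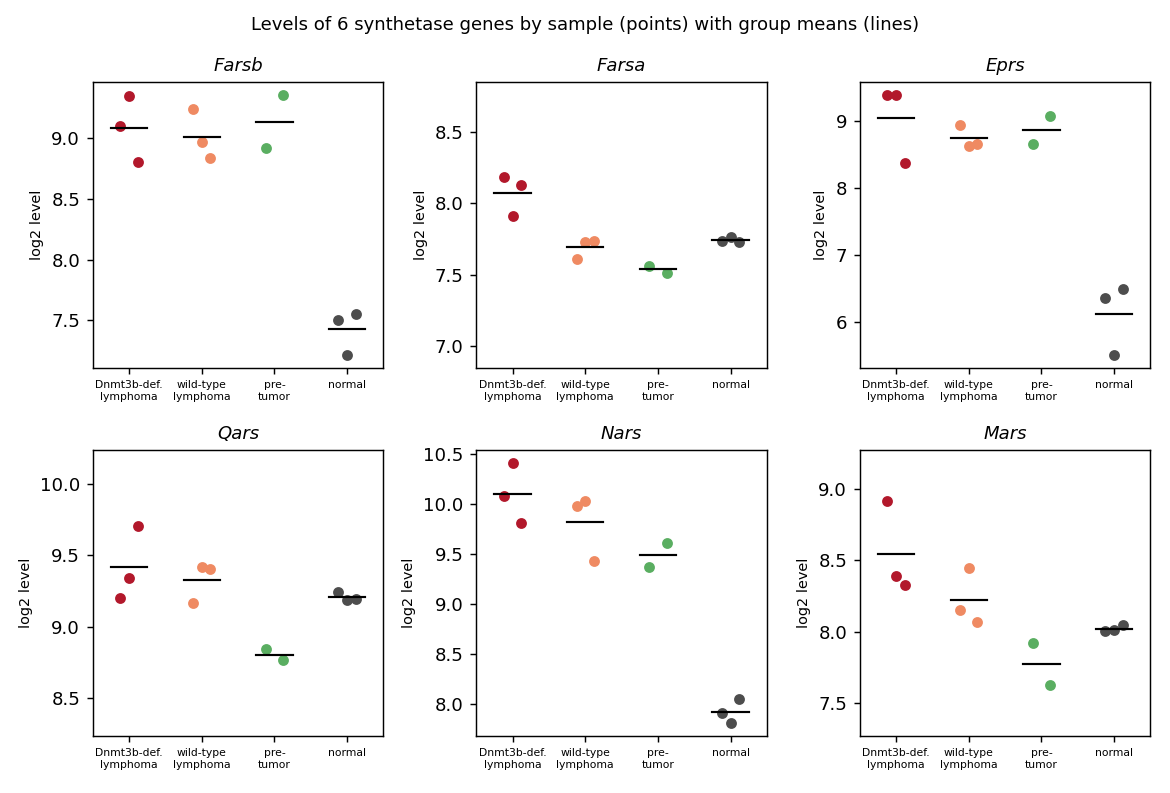
Log2 level (y axis) of 6 synthetase genes in each sample (points) by group (x axis), with group means as lines. Farsb, Eprs and Nars are higher in all 8 MYC-bearing samples than in the 3 normal samples; Farsa, Qars and Mars lie near the normal level in wild-type lymphomas and below it in the pre-tumor samples, differences that were not called.

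Iars, Vars, Gars and Kars rose in every MYC-bearing group by smaller amounts. Iars, the isoleucyl-tRNA synthetase of the complex, had 9.37, 9.48 and 8.98 in Dnmt3b-deficient lymphomas, 8.86, 8.96 and 8.71 in wild-type lymphomas, 8.77 and 9.11 in pre-tumor thymocytes, and 7.55, 7.85 and 7.78 in normal thymocytes. It rose by 1.55, 1.12 and 1.21 in Dnmt3b-deficient lymphomas, wild-type lymphomas and pre-tumor thymocytes (limma adjusted p = 0.000829, 0.00308 and 0.00462). The second Iars probe set gave 1.46, 1.23 and 1.68 and was called in the same 3 comparisons (limma adjusted p = 0.00849, 0.0186 and 0.00978).

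Gars, which charges tRNA with glycine, ranged from 9.49 to 9.92 in Dnmt3b-deficient lymphomas, 9.27 to 9.65 in wild-type lymphomas and 9.32 to 9.39 in pre-tumor thymocytes, against 8.40 to 8.55 in normal thymocytes, and rose by 1.23, 1.02 and 0.87. Kars, the lysyl-tRNA synthetase of the complex, ranged from 8.54 to 8.83 in Dnmt3b-deficient lymphomas, 8.54 to 8.70 in wild-type lymphomas and 8.27 to 8.56 in pre-tumor thymocytes, against 7.69 to 7.75 in normal thymocytes, and rose by 0.96, 0.87 and 0.69. Neither gene had a MYC-bearing sample within the normal range. Vars, the valyl-tRNA synthetase, ranged from 8.56 to 8.76 in Dnmt3b-deficient lymphomas, 8.07 to 8.77 in wild-type lymphomas and 7.83 to 8.23 in pre-tumor thymocytes, against 7.15 to 7.28 in normal thymocytes. It rose by 1.46 in Dnmt3b-deficient lymphomas, 1.15 in wild-type lymphomas and 0.83 in pre-tumor thymocytes (limma adjusted p = 0.00183, 0.0053 and 0.0298). The pre-tumor calls rest on 2 samples: without pre-tumor replicate 2, only 5 of the 18 synthetases were called higher, as Gars (adjusted p = 0.0642), Lars (0.06), Rars (0.0543) and Vars (0.069) missed the threshold. The pre-tumor call of Vars was also lost without replicate 1 (0.152) or any one normal sample (0.0585 to 0.0805). With only pre-tumor and normal thymocytes in the fit, the pre-tumor calls of Eprs (0.0503), Kars (0.0532), Rars (0.0693) and Vars (0.0663) were lost.

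**Figure D3:**
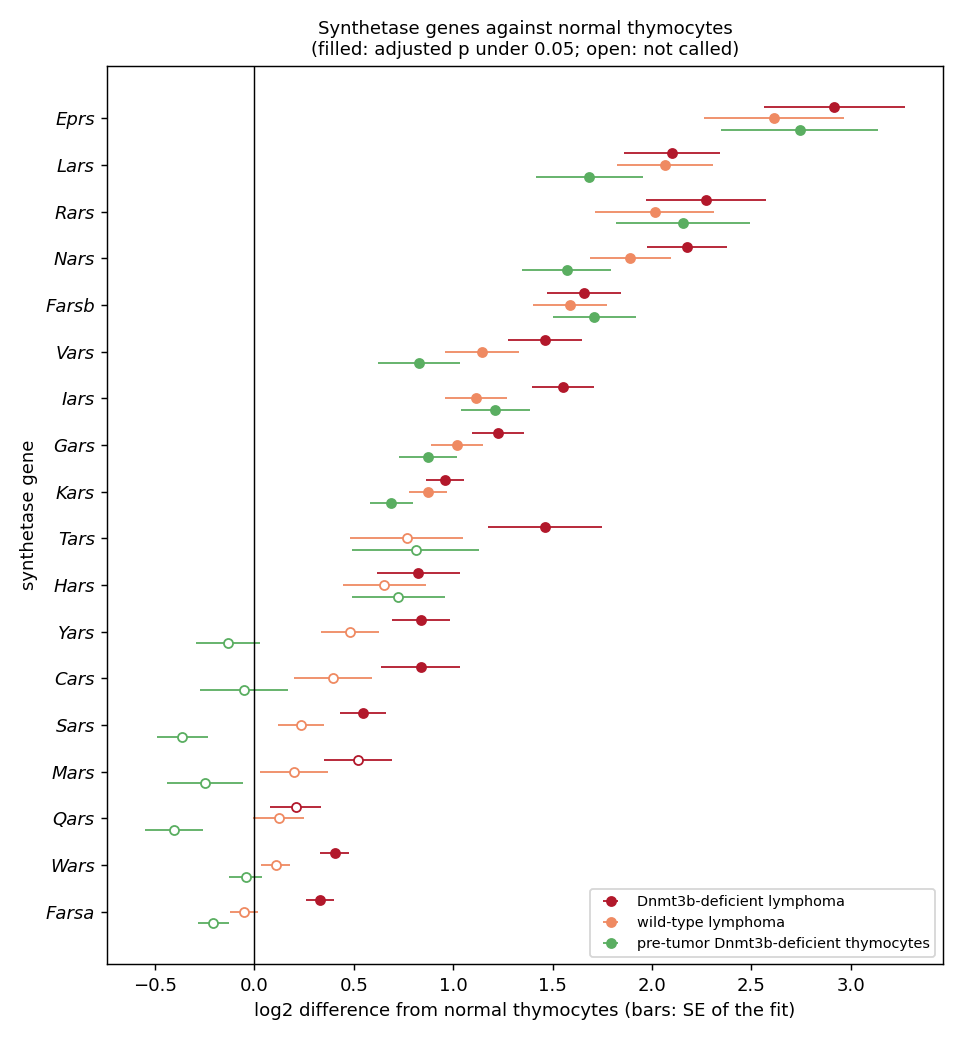
Log2 difference from normal thymocytes (x axis) of the 18 measured synthetases (y axis) in Dnmt3b-deficient lymphomas, wild-type lymphomas and pre-tumor thymocytes, with bars for the SE of the fit. Filled points passed an adjusted p of 0.05; the 9 genes from Eprs to Kars are filled in all 3 comparisons, and Mars and Qars in none.

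A further 7 synthetases, Tars, Hars, Yars, Cars, Sars, Wars and Farsa, were called higher in Dnmt3b-deficient lymphomas and not called in the other comparisons with normal thymocytes. The difference between the lymphoma genotypes was not called for any of them. Tars, the threonyl-tRNA synthetase, had 8.74, 8.52 and 7.76 in Dnmt3b-deficient lymphomas, 7.76, 7.85 and 7.33 in wild-type lymphomas, 7.37 and 8.01 in pre-tumor thymocytes, and 6.85, 6.77 and 7.01 in normal thymocytes. All 8 MYC-bearing samples exceeded the normal samples, and 2 of the Dnmt3b-deficient lymphomas were the highest of all. Tars rose by 1.46 in Dnmt3b-deficient lymphomas (limma adjusted p = 0.0102), and differed by 0.77 in wild-type lymphomas (0.111) and 0.81 in pre-tumor thymocytes (0.129). The wild-type difference of Tars was called under 3 of 21 alternative settings (0.0437 to 0.0484).

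Yars, which charges tRNA with tyrosine, had 9.27, 9.03 and 8.78 in Dnmt3b-deficient lymphomas, 8.55, 8.94 and 8.51 in wild-type lymphomas, 8.02 and 8.09 in pre-tumor thymocytes, and 8.21, 8.21 and 8.15 in normal thymocytes. The pre-tumor samples lay just below the normal samples and both lymphoma groups above them. Yars rose by 0.84 in Dnmt3b-deficient lymphomas (limma adjusted p = 0.00602), and differed by 0.48 in wild-type lymphomas (0.0548) and -0.13 in pre-tumor thymocytes (0.706). The wild-type value passed under 7 of the 21 alternative settings.

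The calls of Cars, Hars and Sars in Dnmt3b-deficient lymphomas lay nearer the threshold. Cars, the cysteinyl-tRNA synthetase, rose by 0.84 (limma adjusted p = 0.022), Hars, the histidyl-tRNA synthetase, by 0.82 (0.0289), and Sars, the seryl-tRNA synthetase, by 0.55 (0.0142). Hars stood above normal in all 8 MYC-bearing samples, at 7.23 or more against 7.04 or less. It differed by 0.65 in wild-type lymphomas (0.068) and 0.72 in pre-tumor thymocytes (0.0705), called under 6 and 4 of the 21 alternative settings. Its pre-tumor difference was 0.30 to 1.15 when 1 sample was left out, with the highest value without pre-tumor replicate 1 and the lowest without replicate 2. The Hars call was lost without Dnmt3b-deficient lymphoma replicate 1 (0.0823) or 2 (0.0958) or any one normal sample (0.0566 to 0.0917), that of Cars without the same lymphoma replicates (0.0678 and 0.065) or normal replicate 1 or 2 (0.073 and 0.0553), and that of Sars without normal replicate 2 (0.0506). Wars, the tryptophanyl-tRNA synthetase, rose by 0.40, with 8.46 to 8.62 in Dnmt3b-deficient lymphomas against 8.09 to 8.14 in normal thymocytes (limma adjusted p = 0.00781). The Wars call was lost after a further quantile normalization (0.0708).

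Mars and Qars were called in none of the comparisons as fitted. Mars, the methionyl-tRNA synthetase of the complex, which serves both initiation and elongation, had 8.91, 8.39 and 8.33 in Dnmt3b-deficient lymphomas, 8.15, 8.45 and 8.07 in wild-type lymphomas, 7.92 and 7.63 in pre-tumor thymocytes, and 8.01, 8.01 and 8.05 in normal thymocytes. Qars, the glutaminyl-tRNA synthetase of the complex, had 9.20, 9.34 and 9.71 in Dnmt3b-deficient lymphomas, 9.16, 9.42 and 9.40 in wild-type lymphomas, 8.84 and 8.76 in pre-tumor thymocytes, and 9.24, 9.18 and 9.20 in normal thymocytes. For both genes the pre-tumor samples were below every other sample. The difference of Qars from normal was 0.21 in Dnmt3b-deficient lymphomas (95% interval -0.09 to 0.51), 0.12 in wild-type lymphomas (-0.18 to 0.42) and -0.40 in pre-tumor thymocytes (-0.74 to -0.07), with limma adjusted p of 0.364, 0.634 and 0.0952. For Mars it was 0.52 (0.12 to 0.92), 0.20 (-0.20 to 0.60) and -0.25 (-0.70 to 0.20), with limma adjusted p of 0.0747, 0.515 and 0.468. Under alternative settings Qars was called lower in pre-tumor thymocytes with only the 2 groups in the fit (0.0306) and without Dnmt3b-deficient lymphoma replicate 3 (0.0223). Mars was called higher in Dnmt3b-deficient lymphomas after centring the arrays and under both filters on dim probe sets (0.0367 to 0.0436). Sars lay below the normal samples in the pre-tumor samples too, at 8.42 and 8.63 against 8.84 to 8.97, a difference of -0.36 that was not called (limma adjusted p = 0.0967).

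Synthetases of the complex and free ones were both among the genes that rose. Of the 7 measured synthetases of the complex (Eprs, Iars, Kars, Lars, Mars, Qars and Rars), 5 were called higher in each of the 3 comparisons with normal thymocytes. Of the 11 that work outside it, 11 were called in Dnmt3b-deficient lymphomas, 4 in wild-type lymphomas and 4 in pre-tumor thymocytes. Of all probe sets, 9.7%, 9.58% and 9.69% were called higher in the same order of comparisons. The median difference for the complex was 1.55 in Dnmt3b-deficient lymphomas, 1.12 in wild-type lymphomas and 1.21 in pre-tumor thymocytes. For the others it was 0.84, 0.65 and 0.72. The difference between the 2 classes was not tested.

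Both listed scaffolds rose in each of the 3 comparisons with normal thymocytes. Aimp1 had 7.39, 7.58 and 6.85 in Dnmt3b-deficient lymphomas, 7.49, 7.11 and 7.25 in wild-type lymphomas, 6.97 and 7.65 in pre-tumor thymocytes, and 5.97, 6.0 and 5.94 in normal thymocytes. It rose by 1.30, 1.32 and 1.34 (limma adjusted p = 0.00659, 0.00699 and 0.0116), and each MYC-bearing sample exceeded the normal samples. Aimp2 had 8.07, 7.71 and 7.92 in Dnmt3b-deficient lymphomas, 7.52, 7.35 and 7.44 in wild-type lymphomas, 7.37 and 7.72 in pre-tumor thymocytes, and 6.91, 6.99 and 6.88 in normal thymocytes. It rose by 0.98, 0.51 and 0.62 (limma adjusted p = 0.00137, 0.0192 and 0.0152), again without overlap. The wild-type call of Aimp2 was lost without wild-type lymphoma replicate 1 (0.0716) or normal replicate 1 (0.0564) or 3 (0.0573), and without pre-tumor replicate 2 neither scaffold was called in pre-tumor thymocytes (0.0915 and 0.116). The third scaffold, Eef1e1, which is no member of the list, rose by 0.92, 0.97 and 1.12 in Dnmt3b-deficient lymphomas, wild-type lymphomas and pre-tumor thymocytes (limma adjusted p = 0.0467, 0.0395 and 0.0356).

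Of the 12 ATF4-type genes, 3 were called higher in Dnmt3b-deficient lymphomas and 3 in wild-type lymphomas, namely Asns, Psat1 and Phgdh, all enzymes of amino acid synthesis. Psph, also such an enzyme, was not called. In pre-tumor thymocytes Asns and Psat1 were called higher and Atf5 lower. The median difference over the 12 genes was 0.26 in Dnmt3b-deficient lymphomas, 0.08 in wild-type lymphomas and -0.22 in pre-tumor thymocytes. The shares of all probe sets called higher in these comparisons were 9.7%, 9.58% and 9.69%, and those called lower 10.5%, 10.3% and 9.88%. The counts of called ATF4-type genes, in either direction, were not tested against these shares.

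Asns, which makes asparagine from aspartate and glutamine, showed the largest change of the 32 genes in each comparison with normal thymocytes. Its log2 level was 9.59, 9.84 and 9.06 in Dnmt3b-deficient lymphomas, 9.03, 9.73 and 8.68 in wild-type lymphomas, 7.87 and 8.29 in pre-tumor thymocytes, and 5.18, 4.72 and 5.18 in normal thymocytes. The groups formed steps: normal samples lowest, pre-tumor samples well above them, and all 6 lymphomas above the pre-tumor samples. Asns rose by 4.47 (SE 0.31) in Dnmt3b-deficient lymphomas, 4.12 (SE 0.31) in wild-type lymphomas and 3.05 (SE 0.35) in pre-tumor thymocytes, or 22.2-fold, 17.4-fold and 8.30-fold (limma adjusted p = 0.000259, 0.000462 and 0.0024). The call stood under each of the 21 alternative settings in all 3 comparisons.

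The Asns promoter is given because it is a textbook target of ATF4 in human and rodent cells and holds the TGATGNAA sequence close to its start. The window lies at chr6:7693210-7693459 on the minus strand (RefSeq, build GRCm38.p6), with that sequence in capitals. Chac1, at chr2:119350992-119351241 on the plus strand, is set beside it because its window holds the same core on the opposite strand while its level did not pass in any comparison.
Asns: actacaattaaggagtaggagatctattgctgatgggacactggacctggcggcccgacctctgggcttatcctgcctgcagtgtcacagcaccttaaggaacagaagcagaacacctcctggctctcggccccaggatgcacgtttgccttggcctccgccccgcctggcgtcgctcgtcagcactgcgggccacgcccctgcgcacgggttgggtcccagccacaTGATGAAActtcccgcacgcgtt
Chac1: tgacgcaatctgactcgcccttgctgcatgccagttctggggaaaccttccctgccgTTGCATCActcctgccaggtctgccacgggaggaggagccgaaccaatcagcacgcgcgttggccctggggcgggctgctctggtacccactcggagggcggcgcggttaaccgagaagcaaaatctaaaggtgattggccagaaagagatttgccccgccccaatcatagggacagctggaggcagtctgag
The core begins at position -23 in Asns and -193 in Chac1.

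Psat1, Phgdh and Psph catalyse successive parts of serine synthesis from glycolysis. Psat1, the aminotransferase in the middle of the pathway, had 8.97, 9.14 and 9.10 in Dnmt3b-deficient lymphomas, 8.93, 8.97 and 8.76 in wild-type lymphomas, 8.69 and 8.53 in pre-tumor thymocytes, and 7.27, 7.47 and 7.42 in normal thymocytes. It rose by 1.69, 1.50 and 1.22 (limma adjusted p = 9.95e-05, 0.000235 and 0.000937), with no MYC-bearing sample in the normal range. Phgdh, the first enzyme, had 9.09, 8.73 and 8.93 in Dnmt3b-deficient lymphomas, 8.75, 8.86 and 8.58 in wild-type lymphomas, 8.47 and 8.54 in pre-tumor thymocytes, and 8.19, 7.92 and 8.14 in normal thymocytes. The rise of Phgdh was 0.83 in Dnmt3b-deficient and 0.65 in wild-type lymphomas (limma adjusted p = 0.00251 and 0.00764). The pre-tumor samples stood above the normal ones by 0.42, which was not called (0.0582). Psph, the phosphatase that completes serine, was dim and ranged over 5.69 to 6.01 in Dnmt3b-deficient lymphomas, 5.74 to 5.85 in wild-type lymphomas, 5.62 to 5.86 in pre-tumor thymocytes and 5.44 to 5.85 in normal thymocytes. These ranges overlapped, and the Psph differences of 0.20, 0.13 and 0.06 were not called.

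The transcription factors of the response showed no rise that passed. Atf4 had 7.87, 7.39 and 7.64 in Dnmt3b-deficient lymphomas, 7.36, 7.74 and 7.28 in wild-type lymphomas, 6.99 and 7.31 in pre-tumor thymocytes, and 7.37, 7.37 and 7.26 in normal thymocytes. The lymphomas reached higher values than normal thymocytes, with overlap in the wild-type tumors, and the difference was 0.30 (95% interval -0.08 to 0.68) in Dnmt3b-deficient lymphomas, 0.13 (-0.25 to 0.51) in wild-type lymphomas and -0.18 (-0.61 to 0.24) in pre-tumor thymocytes. The limma adjusted p was 0.29, 0.721 and 0.6. The arrays measure Atf4 mRNA, whereas the response is known to act largely on its translation, which was not measured.

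Atf5, a related factor, had 5.39 and 5.47 in pre-tumor thymocytes against 5.71 in each of the 3 normal samples. It fell by 0.28 on the log2 scale there (limma adjusted p = 0.0246). This call was lost without any one of the 5 samples compared (0.056 to 0.118), after centring the arrays (0.0767) and without the dimmest 25% of probe sets (0.085). Ddit3, also known as CHOP and linked to cell death under prolonged stress, had 5.02, 4.64 and 5.02 in Dnmt3b-deficient lymphomas, 5.02, 5.22 and 5.10 in wild-type lymphomas, 4.79 and 4.95 in pre-tumor thymocytes, and 4.98, 5.46 and 5.25 in normal thymocytes. Its differences from normal of -0.34, -0.12 and -0.36 were not called (limma adjusted p = 0.179, 0.73 and 0.197). Cebpb, a partner of ATF4, differed by 0.45, 0.41 and 0.11, and Nupr1, a small stress-induced nuclear protein, by -0.18, -0.14 and -0.33, none of them called.

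Among the stress effectors, Trib3, an inhibitor of AKT and ATF4 signalling, had 5.84, 5.65 and 5.51 in Dnmt3b-deficient lymphomas, 5.21, 5.42 and 5.28 in wild-type lymphomas, 5.14 and 5.20 in pre-tumor thymocytes, and 4.92, 5.52 and 5.85 in normal thymocytes. The range of the 3 normal samples covered all 8 others. Chac1, which breaks down glutathione, had 5.55, 5.53 and 5.56 in Dnmt3b-deficient lymphomas, 5.34, 5.84 and 5.52 in wild-type lymphomas, 5.42 and 5.17 in pre-tumor thymocytes, and 5.25, 5.81 and 5.91 in normal thymocytes. Sesn2, a leucine sensor upstream of mTORC1, had 6.05, 5.44 and 6.07 in Dnmt3b-deficient lymphomas, 4.97, 5.44 and 5.10 in wild-type lymphomas, 5.29 and 4.88 in pre-tumor thymocytes, and 5.57, 5.60 and 5.56 in normal thymocytes. Wild-type lymphoma and pre-tumor samples lay below the normal samples for Sesn2, and 2 of the 3 Dnmt3b-deficient lymphomas above them. The Sesn2 differences from normal were 0.28, -0.41 and -0.49 in Dnmt3b-deficient lymphomas, wild-type lymphomas and pre-tumor thymocytes, and none was called (limma adjusted p = 0.464, 0.231 and 0.193).

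**Figure D4:**
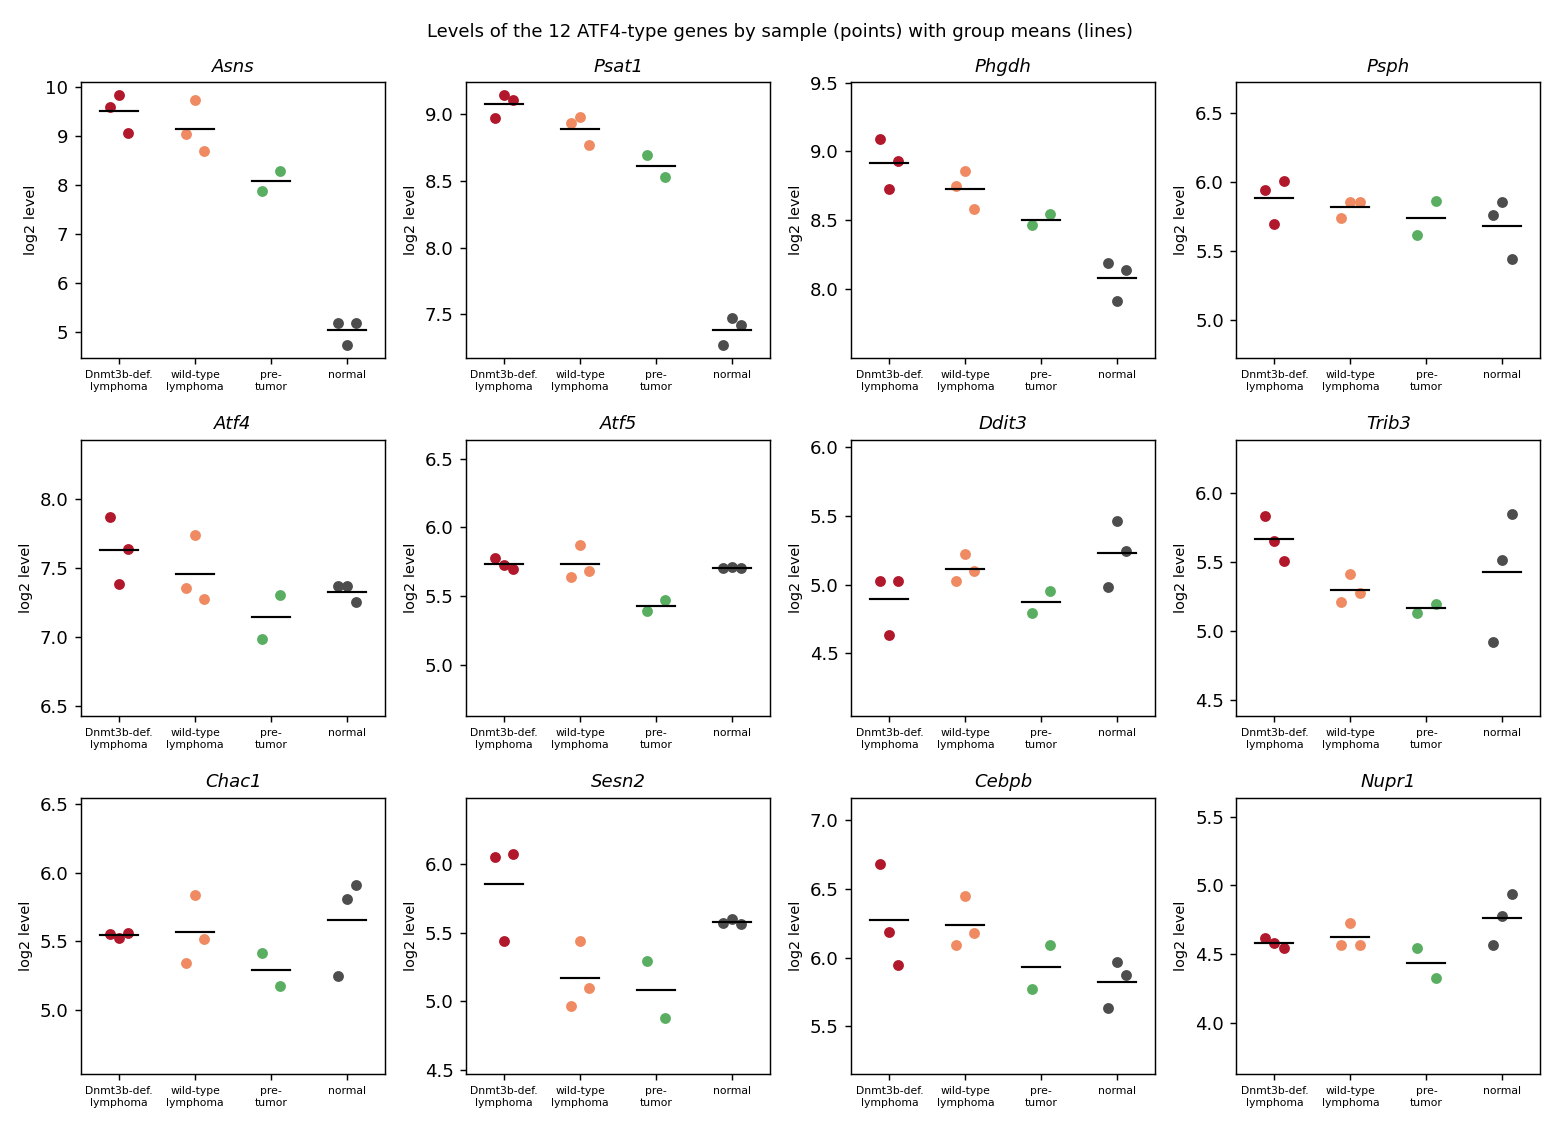
Log2 level (y axis) of the 12 ATF4-type genes in each sample (points) by group (x axis), with group means as lines. Asns, Psat1 and Phgdh are higher in all 6 lymphomas than in the 3 normal samples, while the points of Atf4, Ddit3, Trib3 and Chac1 overlap between groups in most comparisons.

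The comparison of the lymphoma genotypes asks what goes with loss of Dnmt3b. None of the 32 genes was called between Dnmt3b-deficient and wild-type lymphomas, where 0.00691% of all probe sets were called in either direction. At an unadjusted limma p under 0.05 there were 6 of 18 synthetases, 1 of 12 ATF4-type genes and 1 of 2 scaffolds, beside 1823 of all 28939 probe sets. All 18 synthetases had a higher mean in Dnmt3b-deficient lymphomas, by a median of 0.30, beside 54.5% of the 18958 probe sets with 1 symbol above the lowest value and a median of 0.02 over them. After a further quantile normalization 17 of 18 were above 0, with a median of 0.26. The synthetases are measured on the same 6 arrays and are not independent of each other, so this count is a description.

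Groups did not overlap for 3 synthetases, 1 ATF4-type gene and 1 scaffold in this comparison, all of them higher in Dnmt3b-deficient lymphomas, and 4.64% of all probe sets were higher without overlap. These genes were Farsa, Iars, Wars, Trib3 and Aimp2. Farsa differed by 0.38 (95% interval 0.22 to 0.54, limma adjusted p = 0.309), Wars by 0.30 (0.13 to 0.47, 0.547), Aimp2 by 0.47 (0.20 to 0.73, 0.541), Iars by 0.44 (0.07 to 0.80, 0.75) and Trib3 by 0.37 (-0.14 to 0.87, 0.888). The lowest adjusted p that any of the 5 reached under the 21 alternative settings was 0.0582, for Farsa. The widest difference between the genotypes was that of Tars, 0.70 (0.03 to 1.37, 0.772), closely followed by Sesn2, 0.68 (0.21 to 1.16, 0.64), and both had a Dnmt3b-deficient sample within the wild-type range. For Asns the difference was 0.35 (-0.38 to 1.09, 0.964). Thymocyte markers gave no call between the genotypes, while 10 of 12 macrophage markers and all 7 neutrophil markers had a lower mean in Dnmt3b-deficient lymphomas, with none called. Of the 8 dendritic cell markers 7 had a lower mean, 4 of them at an unadjusted p under 0.05 and none called, and their list mean did not overlap between the genotypes (5.15 to 5.43 in Dnmt3b-deficient and 5.53 to 5.99 in wild-type lymphomas). The list mean of the neutrophil markers was 4.03 to 6.04 in Dnmt3b-deficient lymphomas and 4.22 to 6.71 in wild-type lymphomas, and the part of these markers in the synthetase differences was not tested.

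The comparison of Dnmt3b-deficient lymphomas with pre-tumor thymocytes of the same genotype follows the genes from early MYC exposure to tumor. None of the 32 genes was called, where 0.0691% of all probe sets were called in either direction. An unadjusted limma p under 0.05 was found for 11 of 18 synthetases, 6 of 12 ATF4-type genes and 1 of 2 scaffolds, beside 2730 of all 28939 probe sets. Of the synthetases, 17 of 18 had a higher mean in the lymphomas, with a median difference of 0.49, beside 57.6% of the 18958 probe sets and a median of 0.03 over them. Groups did not overlap for 10 synthetases and 8 ATF4-type genes, all higher in the lymphomas, beside 13.1% of all probe sets. Yars had the largest synthetase difference, 0.97 (95% interval 0.59 to 1.35, limma adjusted p = 0.117), followed by Sars at 0.91 (0.61 to 1.21, 0.0862) and Cars at 0.89 (0.37 to 1.40, 0.254). Eprs, Rars and Farsb, which were already far above normal in pre-tumor thymocytes, differed by 0.17 (-0.75 to 1.10), 0.12 (-0.67 to 0.90) and -0.05 (-0.54 to 0.44). Asns differed by 1.42 (0.60 to 2.24, 0.253). All 12 macrophage markers and all 7 neutrophil markers also had a higher mean in the lymphomas, and all 9 thymocyte markers a lower one, by a median of 0.58 on the log2 scale, none of them called. Pre-tumor cells were sorted and tumors were not, so that sorting and stage cannot be told apart.

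Promoter windows of 250 bases before to 50 after the start were found in the RefSeq table for 25 of the 32 measured genes. The core TGATGNAA was present in 4 of 11 synthetases with a window and in 4 of 12 ATF4-type genes, beside 3.97% of the 32851 windows of all genes. The synthetases were Gars, Iars, Tars and Yars, all called higher in Dnmt3b-deficient lymphomas, as were 16 of the 18 measured synthetases. Tars and Yars were not called in the other comparisons with normal thymocytes. Among synthetases with a window but no core, Eprs, Farsa, Farsb, Kars and Sars were also called in Dnmt3b-deficient lymphomas, and Mars and Qars were not. The ATF4-type genes were Asns, Chac1, Trib3 and Nupr1, of which Asns alone passed in any comparison. Stretches of 30 bases around the core are given, for the synthetases because they carry it and for Trib3 and Nupr1 because their levels did not pass, with the core in capitals in whichever orientation it stands.
Gars: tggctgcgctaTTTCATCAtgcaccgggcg
Iars: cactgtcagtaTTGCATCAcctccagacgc
Tars: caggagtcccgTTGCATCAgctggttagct
Yars: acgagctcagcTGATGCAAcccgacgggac
Trib3: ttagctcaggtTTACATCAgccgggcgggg
Nupr1: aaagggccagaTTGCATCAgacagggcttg
They lie at chr6:55037960-55037989 (plus strand) for Gars, chr13:49682126-49682155 (plus) for Iars, chr15:11399655-11399684 (minus) for Tars, chr4:129189895-129189924 (plus) for Yars, chr2:152344028-152344057 (minus) for Trib3 and chr7:126625562-126625591 (minus) for Nupr1. The E-box CACGTG was present in 3 of the 11 synthetases, Farsb, Iars and Tars, and in 1 of the 12 ATF4-type genes, Nupr1, beside 7.15% of all windows. Neither sequence was present in the windows of the scaffolds Aimp1 and Aimp2, which rose. Eprs and Kars rose with neither sequence in their windows, and Lars, Nars, Rars and Vars had no window in the table.

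Other genes of the pathway were counted from lists. Of 20 other ATF4 target genes, 9 were called higher and 1 lower in Dnmt3b-deficient lymphomas, 6 higher in wild-type lymphomas and 5 higher in pre-tumor thymocytes, with none lower in the last 2 comparisons. Of all probe sets, 9.7%, 9.58% and 9.69% were called higher in the same order of comparisons, and 10.5%, 10.3% and 9.88% lower. Xpot, the exportin that carries tRNA out of the nucleus, rose by 2.19 in Dnmt3b-deficient lymphomas, 1.88 in wild-type lymphomas and 1.62 in pre-tumor thymocytes. The amino acid transporters Slc7a5, for large neutral amino acids, and Slc7a1, for cationic ones, rose as well, Slc7a5 by 2.03, 1.59 and 1.18 and Slc7a1 by 1.59, 1.77 and 0.82 in the same comparisons. Stc2, a secreted glycoprotein, rose by 1.36, 1.27 and 0.98. The limma adjusted p of these 4 genes lay between 0.000138 and 0.00778. The gene called lower was Slc7a11, the cystine transporter, named after its value was seen, which fell in Dnmt3b-deficient lymphomas (limma adjusted p = 0.0175). The fitted difference was -2.92, a lower limit of the fall, since 1 of the 3 samples was at the lowest value of the table. It was -2.07 in wild-type lymphomas and -2.43 in pre-tumor thymocytes, which were not called (0.0638 and 0.055).

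Genes for the eIF2α kinases that start the response and for phosphatase parts were counted together. Of 6 measured, none was called higher, and 1 was called lower in Dnmt3b-deficient lymphomas, 2 in wild-type lymphomas and 1 in pre-tumor thymocytes. Of all probe sets, 9.58% to 9.7% were called higher and 9.88% to 10.5% lower in these comparisons. Counts out of 6 genes are too small to be set apart from these shares. Eif2ak3, also known as PERK, the kinase of endoplasmic reticulum stress, had 6.39, 6.72 and 6.52 in Dnmt3b-deficient lymphomas, 6.60, 6.49 and 6.89 in wild-type lymphomas, 6.71 and 6.51 in pre-tumor thymocytes, and 7.68, 7.66 and 7.53 in normal thymocytes. All MYC-bearing samples lay below the normal samples, and Eif2ak3 fell by 1.08, 0.96 and 1.01 on the log2 scale (limma adjusted p = 0.00127, 0.00226 and 0.00399). Ppp1r15b, which helps remove the phosphate from eIF2α, fell by 0.50 in wild-type lymphomas (limma adjusted p = 0.0214). It was not called in Dnmt3b-deficient lymphomas or pre-tumor thymocytes. Ppp1r15b had 2 probe sets, and the value given is that of the brighter.

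Mitochondrial synthetases, which serve the separate translation system of that organelle, were called in both directions. Of 16 measured, 5 were called higher and 2 lower in Dnmt3b-deficient lymphomas, 5 higher and 3 lower in wild-type lymphomas, and 3 higher and 2 lower in pre-tumor thymocytes, beside 9.58% to 9.7% of all probe sets called higher and 9.88% to 10.5% called lower. Nars2 rose by 1.14, 1.97 and 0.78 in Dnmt3b-deficient lymphomas, wild-type lymphomas and pre-tumor thymocytes, Rars2 by 1.74, 1.69 and 1.84, and Yars2 by 1.14, 0.97 and 1.51. Aars2 fell by 0.84, 0.87 and 1.11 on the log2 scale. The median difference over the 16 genes was 0.09 in Dnmt3b-deficient lymphomas and 0.03 in wild-type lymphomas, below the cytosolic medians given above. The difference between the lists was not tested.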

How the data were processed

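RNA from 11 mouse thymus samples, 300 ng each, was labelled and hybridised to Affymetrix whole-transcript arrays, per the labels' protocols. The authors deposited 1 table of log2 expression values, for which Partek and RMA are named, with no version, in the submitters' processing notes. The table has a lowest value of 3.32, the log2 of 10, below which no level can be read. Precision is limited by the number of arrays.

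Gene symbols came from the platform's annotation table. It lists no gene for the 6573 lowest-numbered probe sets, which were taken for controls from their IDs and dropped, leaving 28939: 21789 with 1 symbol, 1621 with several and 5529 with none. For a gene with several single-symbol probe sets, the one with the highest mean over the 11 arrays was used. The values were used as deposited, with no further normalization. Group means were fitted to all 4 groups together with limma 3.58.1 in R 4.3.3 (lmFit, eBayes without a trend), with 7 residual and 0.46 prior degrees of freedom. Calls were made at an adjusted p under 0.05 (Benjamini-Hochberg, all 28939 probe sets), and all adjusted p-values come from this limma fit or its alternatives. The 95% intervals are of the fit and are not adjusted. The procedure was tested on simulated data.

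All 32 measured members are named. From each list of other pathway genes (mitochondrial synthetases, eIF2α kinases and phosphatase parts, other ATF4 targets, the unfolded protein response of the endoplasmic reticulum), up to 4 called genes with the largest difference in wild-type lymphomas against normal thymocytes are named. The members and lists were chosen with earlier results of these data known. Lists were described by counts and medians and not tested.

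No block for the replicate numbers was used in the main fit. Deviations from the group means of same-numbered samples correlated between -0.331 and 0.322. Deviations within a group sum to 0, and differently numbered samples were not compared, so these correlations cannot exclude a pairing. Nothing in the labels states that samples of a group shared a litter or day. Promoter windows came from a RefSeq table of build GRCm38.p6. Alternatives were a further quantile normalization, centring of the arrays, filters on dim probe sets, a variance trend, no moderation of the variances and a replicate block. Others were a fit of only the 2 groups compared, a fold change of at least 2, and the mean of the probe sets of a gene. Each of the 11 samples was also left out in turn. Of the members, the mean of the probe sets can change Iars alone, and the fold change can only remove calls.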

Additional observations from a re-analysis of the deposited data

How the results depend on the processing

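Each count and each member difference from normal thymocytes was recomputed under 21 alternative settings. Where Dnmt3b-deficient lymphomas were compared with wild-type lymphomas or with pre-tumor thymocytes, only members whose groups did not overlap were followed. In all 119 member differences were followed. Of 49 member differences called as reported, 28 were called under every setting. Of 70 followed and not called, 59 were called under none. A required fold change of at least 2 lost the most calls, 17: it left 9 synthetases and 1 scaffold in Dnmt3b-deficient lymphomas against normal thymocytes, 1 scaffold each in wild-type lymphomas and pre-tumor thymocytes, and 17, 12 and 10 genes of the 4 other pathway lists, where 27, 23 and 17 were called without it. With a replicate block, 4 calls were lost and 0 gained, and 1 scaffold each was called in wild-type lymphomas and pre-tumor thymocytes. The block assumes a pairing by replicate number, which the correlations of same-numbered samples did not settle. With only pre-tumor and normal thymocytes in the fit, 0 scaffolds were called. Leaving out 1 sample at a time gave 1 to 2 scaffolds in wild-type lymphomas, and 0 to 2 scaffolds, 5 to 10 synthetases and 10 to 19 other pathway genes in pre-tumor thymocytes, with the lowest counts without pre-tumor replicate 2. Between Dnmt3b-deficient lymphomas and pre-tumor thymocytes the count of synthetases ranged from 0 to 1, with Farsa called without lymphoma replicate 2 and Wars without pre-tumor replicate 1.

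Among the member differences followed, those that changed sign were small and none was called. In wild-type lymphomas against normal thymocytes, leaving out 1 sample gave -0.012 to 0.220 for Atf4, -0.047 to 0.072 for Atf5, -0.385 to 0.081 for Trib3 and -0.290 to 0.040 for Chac1, and quantile normalization gave -0.024 for Atf5. In Dnmt3b-deficient lymphomas it gave -0.019 to 0.446 for Trib3 and -0.311 to 0.019 for Chac1, and quantile normalization gave -0.0060 for Atf5. In pre-tumor thymocytes leaving out 1 sample gave -0.225 to 0.123 for Cars, -0.182 to 0.094 for Wars, -0.066 to 0.178 for Psph and -0.0535 to 0.266 for Cebpb, centring gave 0.027 for Cars and 0.035 for Wars, and quantile normalization gave -0.017 for Psph. Centring moved the median difference over all probe sets by up to 0.0786, in pre-tumor against normal thymocytes, and quantile normalization by up to 0.0194. The cause of these changes was not tested, except that fewer samples leave a wider error. The pre-tumor group holds 2 samples, and dim members such as Nupr1 and Ddit3 lie near the array medians, where small changes cannot be read.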

Other observations

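Genes of the unfolded protein response of the endoplasmic reticulum were called in both directions. Of 16 measured, 6 were called higher and 3 lower in Dnmt3b-deficient lymphomas, 5 higher and 2 lower in wild-type lymphomas, and 3 higher and 3 lower in pre-tumor thymocytes, each against normal thymocytes, beside 9.58% to 9.7% of all probe sets called higher and 9.88% to 10.5% called lower. The chaperones Hsp90b1 and Hspa5, which fold proteins inside the endoplasmic reticulum, rose, Hsp90b1 by 2.86, 2.77 and 2.89 and Hspa5 by 1.23, 1.33 and 1.07 in Dnmt3b-deficient lymphomas, wild-type lymphomas and pre-tumor thymocytes. Hspa5 had 9.60, 9.89 and 9.14 in Dnmt3b-deficient lymphomas, 9.59, 9.60 and 9.77 in wild-type lymphomas, 9.31 and 9.46 in pre-tumor thymocytes, and 7.94, 8.36 and 8.64 in normal thymocytes, with no overlap between MYC-bearing and normal samples. Xbp1, a transcription factor of this response, fell by 1.18, 1.39 and 1.37 on the log2 scale, and Edem1, which sends misfolded proteins to degradation, by 2.53, 2.64 and 2.24. The limma adjusted p of these 4 genes lay between 0.000503 and 0.0233.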
